A study of Rattus norvegicus with 64 samples.

Results

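The genes examined here were those of the AMPA receptor, the ion channel that carries most fast excitatory transmission in the brain. They were the 4 pore-forming subunits (Gria1, Gria2, Gria3, and Gria4) and 5 auxiliary proteins, namely the TARPs Cacng2, Cacng3, and Cacng8 and the cornichons Cnih2 and Cnih3. These 9 genes, of 17260 counted, were chosen by name as known parts of the receptor and not by a cut on measured values. The choice was made with earlier results of these data known. All 9 passed the filter on low counts, which left 12521 genes to be tested. RNA was measured by ribosome-depleted, strand-specific sequencing in 64 samples of untreated Long Evans rats, 32 from the medial entorhinal cortex (MEC) and 32 from the lateral entorhinal cortex (LEC). Each region was split into layer II (LII) and the layers below it together (LDeep, which the study defined as layers III to VI). Each of these 4 tissues was represented by 5 samples of age P2 (postnatal day 2), 4 of P9, 3 of P23, and 4 of P45. LII and LDeep were cut by hand from slices under a microscope. The study's methods describe this for the MEC, and how the LEC was cut is not given in the sources used here. A sample holds all cells of its tissue piece, so fewer cells of a type and less RNA per cell cannot be told apart. Replicates carry numbers, and the labels do not say whether a number stands for 1 animal. For its miRNA samples the study used such a number to mark both layers of an animal. The edgeR fits took no number as a pair, so the p-values measure the spread between these samples. If a number is 1 animal, its samples are not independent, and the age p-values of these fits may be too small.

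An AMPA receptor is a tetramer of GRIA subunits. GRIA2 is known to make the channel almost impermeable to calcium, because its transcript is edited by ADAR enzymes at the pore, and receptors without it pass calcium and rectify inwardly. TARPs and cornichons bind the subunits from the endoplasmic reticulum onwards and slow the closing of the channel. TARPs also tie the receptor to the scaffolds of the postsynaptic density. In the forebrain, subunit composition is known to change over the first postnatal weeks, while excitatory synapses form and mature.

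Between 3894334 and 11439143 read pairs were counted per sample, with a median of 7569157.5. Cacng2 was the least counted of the 9 genes (35 to 199 counts per sample) and Gria2 the most counted (2283 to 13766), and no member was at 0 in any sample. The dissection was visible in the markers: all 7 markers of deep cortical layers were lower in LII than in LDeep (median LFC, the log2 fold change, -1.67), and 4 of 5 markers of layer II were higher. The library labelled MEC LII P2 replicate 1 went against its label. Its Slc17a7, the vesicular glutamate transporter of cortical excitatory neurons, was at 0.600 CPM (counts scaled to library size), against 237 to 2235 in the other 63 samples. Its Zic1, a transcription factor known from cerebellar and septal neurons, was at 433 CPM, against 0.970 to 82.6. In this library and 4 others, MEC LDeep P2 replicate 1, MEC LII P2 replicate 3, MEC LDeep P2 replicate 4, and LEC LDeep P45 replicate 4, over 1000 genes lay more than 1 log2 unit from the median of the group's other samples (1156 to 2150 genes). MEC LDeep P2 replicate 1 had Reln, a marker of layer II, at 717 CPM, against 201.5 to 334.7 in its group's other samples. Its Fezf2, a marker of deep layers, was at 24.1, against 64.6 to 84.8. MEC LII P2 replicate 3 had Fezf2 at 35.5, against 2.67 to 10.1 in the others, while its Reln of 996 lay within their 642 to 1460. Whether their layers were mixed was not tested. These 5 libraries were kept, and results that change without them are given both ways.

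The members differed widely in level. On the scale of RPKM (CPM per kilobase of counted exon), Cnih2 was highest at P2 with 145 ± 48.1 (mean ± SD over 5 replicate numbers, the 4 tissues averaged). Gria1 followed with 114 ± 14.9, within the SD of Cnih2, and Gria2 with 81.6 ± 10.2. The mean of Gria1 includes the library labelled MEC LII P2 replicate 1, at 268.5 RPKM. That library also stood off in other P2 means. It was at 166 RPKM for Gria2 (69.3 to 74.3 in its group's other samples) and 56.2 for Cacng8 (17.7 to 20.6). For Cacng3 it was at 7.17 (17.2 to 21.9). Cnih3 (31.4 ± 5.87), Gria3 (30.0 ± 6.02), Cacng8 (26.8 ± 2.44), and Gria4 (24.2 ± 3.44) came next, and neighbours among these 4 did not differ beyond their SDs. Cacng3 (18.2 ± 2.56) and Cacng2 (8.61 ± 0.958) were lowest. By P45 (n = 4) the order had become Gria2 (143 ± 8.05 RPKM) and Cnih2 (139 ± 19.8), then Gria1 (92.0 ± 11.7), Cacng3 (73.3 ± 9.80), Cnih3 (59.8 ± 4.55), Gria3 (57.8 ± 7.22), Gria4 (41.2 ± 4.61), Cacng8 (32.8 ± 6.42), and Cacng2 (14.1 ± 2.03). At P45 the neighbours Gria2 and Cnih2, Gria1 and Cacng3, and Cnih3 and Gria3 lay within their SDs of each other. The RPKM of Gria1 rests on 2871 counted bases, a number divisible by 3 as for coding sequence alone, while Gria2, Gria3, and Gria4 were counted over 5155 to 6856 bases. In the gene model of Gria1, 7 gaps between counted exons were under 30 bases. The counted lengths of Cacng3 (948), Cacng8 (1266), and Cnih3 (483) are also divisible by 3, and those of Cacng2 (1120) and Cnih2 (1337) are not. An order of levels between genes therefore depends on these gene models, and changes of 1 gene between samples do not.

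**Figure D1:**
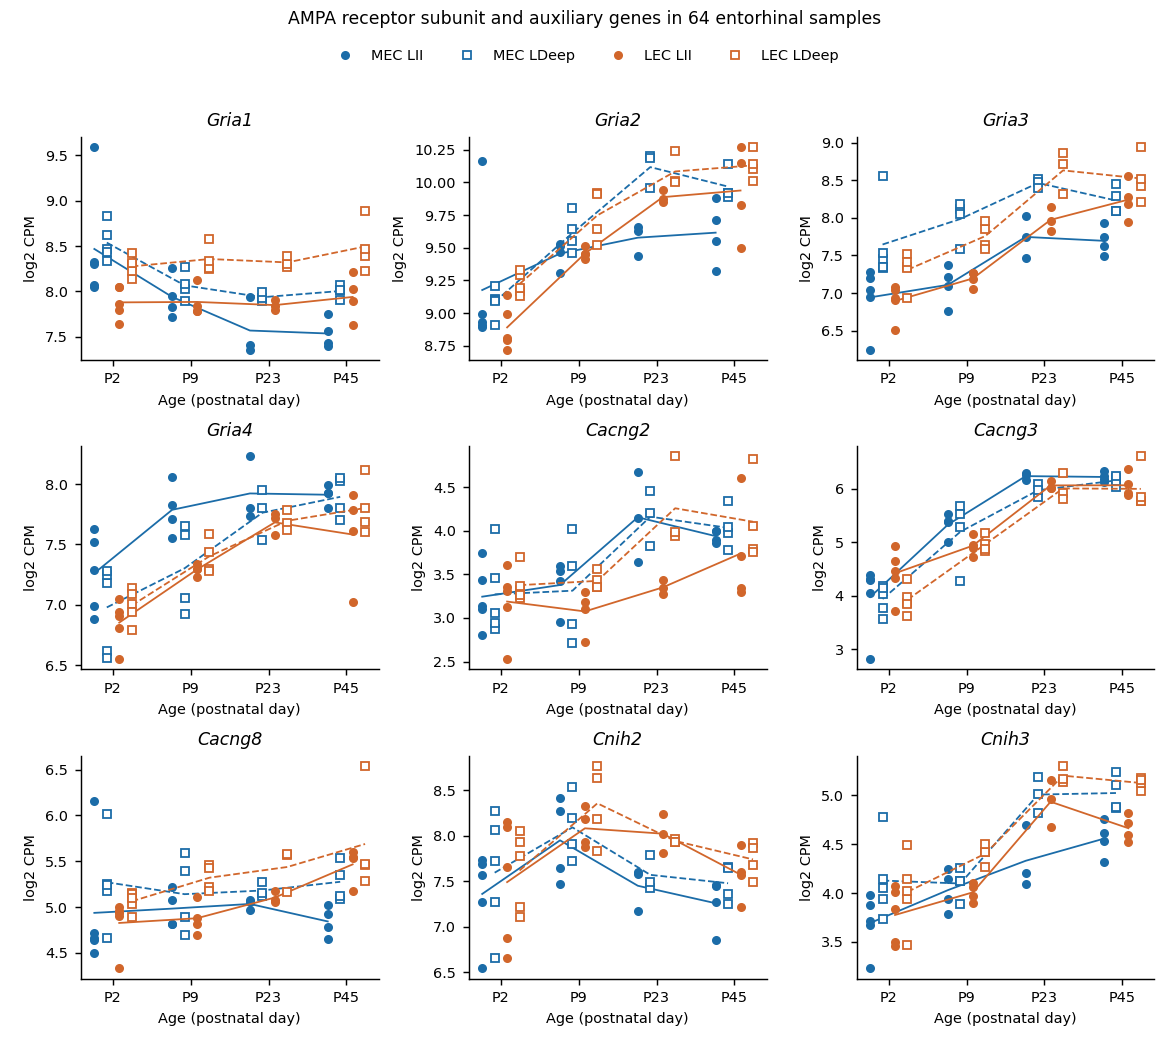
Expression of the 9 genes as log2 CPM (vertical axis) at P2, P9, P23, and P45 (horizontal axis). Each point is 1 of the 64 samples, filled circles are LII and open squares LDeep, blue is MEC and orange LEC, and lines join group means. All 28 samples of Cacng3 at P23 and P45 lie above all 36 at P2 and P9, and the library labelled MEC LII P2 replicate 1 stands off at 9.59 for Gria1, 10.16 for Gria2, and 2.82 for Cacng3.

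To ask how expression of the receptor changed over postnatal development, older (P23/P45) samples were compared with younger (P2/P9) ones, with the 4 tissues weighted equally. Cacng3 rose most, 2.80-fold, and Cnih3, Gria3, Cacng2, Gria2, and Gria4 rose by 1.46- to 1.79-fold, whereas Gria1 and Cnih2 fell slightly. In all, 8 of the 9 genes passed (edgeR quasi-likelihood test, BH adjusted p < 0.05), 6 up and 2 down. Age changed most of the transcriptome, as 81.6% of all genes tested passed, 41.0% up and 40.6% down, so the share of members that passed is near that of all genes. Their median LFC was 0.58, against 0.01 over all genes. Markers of other cell types also moved with age: all 5 oligodendrocyte markers (median LFC 6.43), 5 of 6 astrocyte markers (1.39), and 5 of 5 microglia markers (1.33) were up. So were 4 of 5 markers of all neurons (1.26), whose summed level was 1430 to 2928 CPM in younger and 2038 to 3677 CPM in older samples. Summed oligodendrocyte markers were at 34.1 to 685 CPM in younger and 639 to 15223 CPM in older samples. The part of these shifts in the changes of the members was not tested.

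Among the subunits, Gria1 (chr10:42441723-42760200, plus strand, Rn6) went the other way from the rest. Its log2 CPM in the 36 younger samples was 7.64 at the lowest, 8.18 in the median, and 9.59 at the highest, and in the 28 older samples 7.36, 7.94, and 8.89. The ranges overlapped almost entirely, and the LFC was -0.23 ± 0.07 (SE, edgeR, adjusted p = 0.00122). In MEC LII the LFC was -0.71 ± 0.13 (adjusted p = 8.06e-06), and -0.50 (adjusted p = 6.51e-06) without the library labelled MEC LII P2 replicate 1. In MEC LDeep it was -0.34 ± 0.13 (adjusted p = 0.0221), and -0.29 (adjusted p = 0.0571) without MEC LDeep P2 replicate 4, while LEC LII gave 0.01 ± 0.13 and LEC LDeep 0.10 ± 0.13, neither past the threshold. With age 66.5% and 66.2% of all genes passed in these MEC tissues, and 62.7% and 64.5% in those of the LEC. In a fit of the 32 LEC samples alone Gria1 did not fall with age (LFC 0.05, adjusted p = 0.522).

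Gria2 (chr2:179584306-179704629, minus strand), the subunit that sets calcium permeability, lay at 8.72, 9.30, and 10.16 log2 CPM (lowest, median, highest) in younger and 9.32, 9.93, and 10.27 in older samples. The only younger sample above 9.92 was the library labelled MEC LII P2 replicate 1. The LFC was 0.58 ± 0.06 (edgeR, adjusted p = 1.87e-13). Gria2 rose in MEC LDeep (0.69), LEC LII (0.75), and LEC LDeep (0.62), and in MEC LII the LFC of 0.24 did not pass (adjusted p = 0.061). Without that library it was 0.41 in MEC LII and passed (adjusted p = 2.77e-05). In MEC LDeep and LEC LDeep no younger sample reached the lowest older one, as was so for 26.4% of all genes in each of these tissues in either direction.

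Gria3 (chrX:127562660-127829763, plus strand) and Gria4 (chr8:1548145-2045817, minus strand) rose in all 4 tissues. Gria3, which joins GRIA2 in receptors that cycle at the synapse, lay at 6.25, 7.31, and 8.56 log2 CPM in younger and 7.47, 8.20, and 8.94 in older samples, an LFC of 0.82 ± 0.07 (edgeR, adjusted p = 6.16e-16). Within tissues its LFC ran from 0.49 in MEC LDeep to 1.07 in LEC LII. In MEC LII, LEC LII, and LEC LDeep younger and older samples did not overlap (28.2%, 25.7%, and 26.4% of all genes), and in MEC LDeep they did, through MEC LDeep P2 replicate 4 at 8.56 and other samples above the lowest older value of 8.09. Gria4, known in cortex from interneurons, lay at 6.55, 7.24, and 8.06 in younger and 7.02, 7.79, and 8.23 in older samples, an LFC of 0.54 ± 0.06 (adjusted p = 3.31e-12).

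Among the TARPs, Cacng3 (TARP gamma-3, chr1:192613766-192708371, plus strand) showed the largest change of the 9 genes. At P2 its log2 CPM was 2.82, 4.30, 4.05, 4.39, and 4.32 in MEC LII and 4.19, 4.03, 3.56, 4.14, and 3.78 in MEC LDeep. The LEC gave 4.46, 3.72, 4.34, 4.93, and 4.65 in LII and 3.87, 4.31, 3.63, 3.97, and 3.85 in LDeep. At P45 the values were 6.24, 6.13, 6.18, and 6.32 in MEC LII and 6.03, 6.19, 6.15, and 6.24 in MEC LDeep. All 8 of these lay above every P2 sample, as did those of LEC LII (6.08, 5.92, 5.89, 6.36) and LEC LDeep (5.77, 5.77, 5.84, 6.60). Over all samples the younger ranged from 2.82 to 5.68 and the older from 5.77 to 6.60, without overlap, which 7.42% of all genes tested shared. The LFC was 1.42 without the 5 libraries that stand apart, and within single tissues it ran from 1.36 to 1.58.

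The start of Cacng3 is shown because this gene changed most of the 9 and its window holds the longest repeat of the 6 members' windows at hand. The 250 bases before its start site in RefSeq (assembly GRCr8, another build than that of the counts) lie at chr1:186632312-186632561, plus strand, and are printed 5′ to 3′ with both copies of a repeated stretch in capitals.
Cacng3: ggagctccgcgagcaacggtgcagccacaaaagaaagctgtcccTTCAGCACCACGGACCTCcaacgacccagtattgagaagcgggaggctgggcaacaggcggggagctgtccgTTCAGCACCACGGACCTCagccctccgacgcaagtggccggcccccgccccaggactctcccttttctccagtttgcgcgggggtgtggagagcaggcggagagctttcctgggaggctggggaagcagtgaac
The stretch TTCAGCACCACGGACCTC has 18 bases and begins 206 and 134 bases before the start site. It was found by a search for the longest repeat in this window, and so was chosen after the window had been read. Of 33469 RefSeq gene windows of this length, searched on both strands, 1 held it, that of Cacng3 (0.00299%). The stretch was taken from that window, so a match there was certain and the count says nothing of how unusual it is. How many windows hold a repeat of this length was not counted. RE1, the element known to be bound by REST, a repressor of neuronal genes, opens with similar letters. The match is a description of letters, and no binding was measured. Windows were at hand for 6 of the 9 members, and the longest repeat in the other 5, of Gria4, Cacng2, Cacng8, Cnih2, and Cnih3, had 8 to 11 bases. The GC box GGGCGG, on either strand, occurred in 30.5% of all windows and in those of Cacng3 (1 match), Cnih2 (3), and Cnih3 (1), with a GC content of 64.8%, 62.8%, and 72.4%, and not in the other 3 windows.

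Cacng2 (stargazin, TARP gamma-2, chr7:119229268-119352033, minus strand), the TARP whose loss gives the stargazer mouse, rose with an LFC of 0.70 ± 0.10 (edgeR, adjusted p = 4.35e-09). Its younger samples lay at 2.53, 3.32, and 4.02 log2 CPM (lowest, median, highest) and the older ones at 3.27, 3.95, and 4.85, with an overlap. Cacng8 (TARP gamma-8, chr1:64330106-64350338, minus strand), the main TARP of the hippocampus, lay at 4.33, 5.02, and 6.16 in younger and 4.65, 5.17, and 6.54 in older samples, and its LFC of 0.18 ± 0.09 did not pass (adjusted p = 0.056). Without the 5 libraries that stand apart it passed at 0.19 (adjusted p = 0.000774), and without the library labelled MEC LII P2 replicate 1 alone at 0.24 (adjusted p = 0.0019). Cacng8 rose in LEC LII (0.43 ± 0.18) and LEC LDeep (0.41 ± 0.17), the latter not without LEC LDeep P45 replicate 4 (0.24, adjusted p = 0.195), and gave -0.11 ± 0.18 and -0.02 ± 0.17 in MEC LII and MEC LDeep, neither past the threshold. The difference of this age change between regions did not pass either (-0.48 ± 0.18, adjusted p = 0.108).

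The cornichons went different ways. Cnih3 (chr13:99663150-99770625, plus strand) rose with an LFC of 0.84 ± 0.06 (edgeR, adjusted p = 1.38e-18), from 3.23, 4.02, and 4.78 log2 CPM in younger to 4.09, 4.87, and 5.30 in older samples. Cnih2 (chr1:220474485-220480132, minus strand), the cornichon known to slow AMPA currents in hippocampal pyramidal cells, lay at 6.54, 7.86, and 8.77 in younger and 6.85, 7.60, and 8.24 in older samples. Its LFC was -0.24 ± 0.10 (adjusted p = 0.0224), and the adjusted p rose to 0.0504 to 0.0759 without replicate 3, 4, or 5 of P2, replicate 2 or 4 of P9, or replicate 4 of P45. It did not pass either on counts summed per replicate number (adjusted p = 0.121) or with the number as a random block in limma (adjusted p = 0.0942). At P2 the 8 samples with replicate numbers 1 and 2 lay at 6.54 to 7.27 and the 12 with numbers 3, 4, and 5 at 7.57 to 8.27.

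Neighbouring ages were also compared step by step. From P2 to P9, 7 members passed (63.4% of all genes did). Cacng3 rose 2.05-fold, Cnih2 (LFC 0.56), Gria2 (0.45), Gria4 (0.42), Gria3 (0.29), and Cnih3 (0.22) rose, and Gria1 fell (-0.26 ± 0.09), and by 0.15 without the library labelled MEC LII P2 replicate 1 (LFC -0.15, adjusted p = 0.0255). Cacng2 and Cacng8 gave 0.02 ± 0.13 and 0.01 ± 0.12. From P9 to P23 again 7 passed (64.6% of genes). Cacng3 (0.94), Cnih3 (0.75), Cacng2 (0.71), Gria3 (0.69), Gria2 (0.35), and Gria4 (0.31) rose, and Cnih2 fell by 0.40. The fall of Cnih2 did not pass on counts summed per replicate number (adjusted p = 0.114), nor without replicate 1 or 2 of P23 or replicate 2 or 4 of P9 (0.0537 to 0.0871). Its mean level was 215 ± 51.1 RPKM at P9 and 145 ± 48.1 at P2, where the numbers fell apart as given above, and 139 ± 19.8 at P45. From P23 to P45, 0 of 9 members passed with edgeR, 0 at an unadjusted p below 0.05, and 0 with DESeq2 or with limma, while 3.85% of all genes passed. The largest size was the -0.23 ± 0.15 of Cnih2, and the other 8 members lay between -0.03 and 0.15.

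The mix within each family changed with age. Shares were computed from counts per kilobase, so each gene is a percentage of its family's sum. At P2 Gria1 made up 44.9 ± 1.84% of the 4 subunits (mean ± SD, n = 5 replicate numbers) and Gria2 32.9 ± 1.70%. At P9 Gria2, with 40.6 ± 1.55%, had passed Gria1, with 34.2 ± 2.35% (n = 4). At P23 Gria2 stood at 43.5 ± 1.52% and Gria1 at 26.1 ± 0.784% (n = 3), and at P45 at 42.9 ± 1.20% and 27.2 ± 1.04% (n = 4). Older against younger, the share of Gria1 was 26.7 ± 1.04% against 40.1 ± 5.94% (7 against 9 replicate numbers, two-sided exact permutation test, p = 0.00035, BH adjusted over 8 shares 0.000699). Gria3 gained, 17.4 ± 0.516% against 12.7 ± 1.68% (exact permutation test, adjusted p = 0.000699), as did Gria4, 12.7 ± 0.839% against 10.9 ± 1.48% (adjusted p = 0.0152, and 0.165 without division by length). The order of Gria1 and Gria2 rests on the counted length of Gria1.

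Among the TARPs Cacng3 and Cacng8 exchanged places. Cacng8 held 49.1 ± 2.08% of the 3 TARPs at P2 and 26.9 ± 0.937% at P45, and Cacng3 34.7 ± 2.87% and 61.4 ± 0.719%. Older against younger, Cacng3 was at 61.7 ± 0.906% against 41.8 ± 8.92% and Cacng8 at 26.2 ± 1.51% against 43.9 ± 6.78% (exact permutation test, adjusted p = 0.000699 for each), and the share of Cacng2 did not pass (12.1 ± 1.64% against 14.3 ± 2.67%, adjusted p = 0.0736). Cnih2 held 82.9 ± 4.69% of the cornichon pair in younger and 70.9 ± 3.83% in older samples (exact permutation test, adjusted p = 0.000839). So 7 of the 8 shares passed with age. The order of genes within the TARPs and the cornichons rests on their counted lengths as well.

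**Figure D2:**
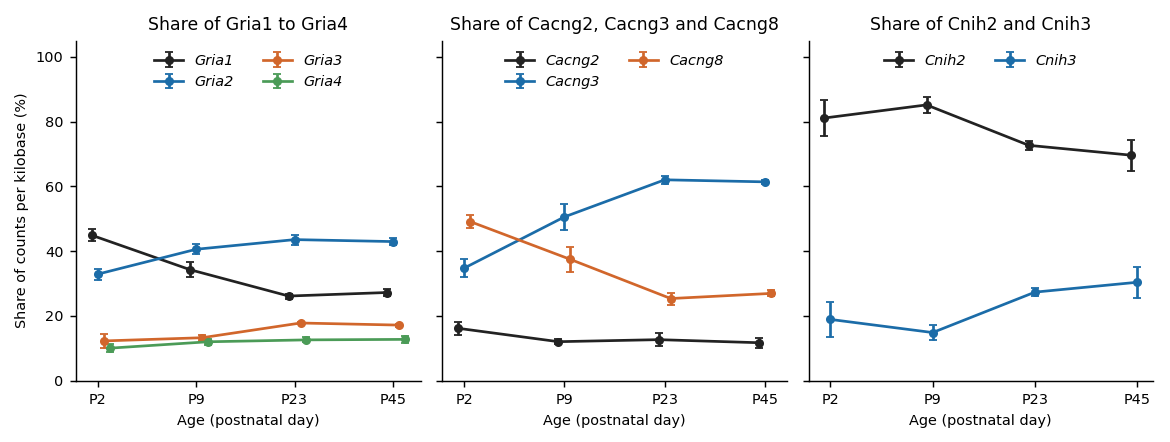
Share of each gene in the counts per kilobase of its family (percent, vertical axis) at P2, P9, P23, and P45 (horizontal axis), for the 4 subunits, the 3 TARPs, and the 2 cornichons. Points are means over 5, 4, 3, and 4 replicate numbers and bars the SD. With the 4 tissues averaged, Gria2 passes Gria1 between P2 and P9, and Cacng3 passes Cacng8 by P9 (50.6% against 37.4%).

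To ask whether LII, which holds the stellate cells of the MEC, differs from LDeep, the layers were compared over regions and ages. Gria3, Cnih3, Gria1, Cacng8, Cacng2, and Gria2 were lower in LII by 0.23 to 0.60 on the log2 scale, and no member was higher. So 6 of 9 members passed (edgeR), all lower, where 54.0% of all genes passed and 30.5% were lower. The members' median LFC was -0.24 against -0.05 over all genes. Markers of other cells moved with layer too. In LII all 6 astrocyte markers (median LFC 0.82), all 4 endothelial (0.65), and 5 of 6 meningeal fibroblast markers (3.80) were higher, and 4 of 5 markers of all neurons were lower (-0.24). Summed meningeal markers were at 20.2 to 1065 CPM in LII (median 587) and 22.1 to 765 CPM in LDeep (median 113), and the neuronal ones at 1430 to 3677 CPM (median 2313) and 1516 to 3541 CPM (median 2842). Their part in the layer differences was not tested.

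Gria3 differed most between layers, with an LFC of -0.60 ± 0.07 (edgeR, adjusted p = 1.81e-10), and LII was lower in 16 of 16 replicate numbers with the regions averaged. At P9 Gria3 was at 7.22, 7.37, 6.76, and 7.09 log2 CPM in MEC LII and 8.12, 8.19, 7.58, and 8.05 in MEC LDeep. In the LEC it was at 7.27, 7.19, 7.05, and 7.27 in LII and 7.85, 7.64, 7.96, and 7.58 in LDeep. The layers did not overlap in either region, which was so for 19.5% of all genes in the MEC and 24.3% in the LEC at this age. In the MEC they did not overlap at P2 either, where 1.96% of genes share this, against 12.3% in the LEC at P2. Most of the libraries that stand apart are in these MEC groups, and their part in that low share was not tested. At P2 MEC LII was at 6.25, 7.20, 6.95, 7.28, and 7.04 and MEC LDeep at 7.45, 7.53, 7.34, 8.56, and 7.35, so that the gap is only that between 7.28 and 7.34.

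Cnih3 was lower in LII in 16 of 16 replicate numbers as well (-0.38 ± 0.06, edgeR, adjusted p = 5.99e-07), Gria1 in 15 (-0.35 ± 0.07, adjusted p = 1.52e-05), Gria2 and Cacng8 in 14 each (-0.23 ± 0.06, adjusted p = 0.0006, and -0.29 ± 0.09, adjusted p = 0.00459), and Cacng2 in 12 (-0.24 ± 0.10, adjusted p = 0.0346). Cacng2 no longer passed when any of 7 replicate numbers was left out (adjusted p 0.0517 to 0.16), and Gria2 did not with limma after quantile normalization (-0.13, adjusted p = 0.0768). Gria4 (0.06 ± 0.06), Cacng3 (0.14 ± 0.08), and Cnih2 (-0.15 ± 0.10) did not pass. With the replicate number as a block Cnih2 passed (-0.15, adjusted p = 0.0107). Cacng3 passed, as higher in LII, without the library labelled MEC LII P2 replicate 1 (0.17, adjusted p = 0.027) and without the 5 libraries that stand apart (0.21, adjusted p = 0.00394).

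Within the LEC the same 6 genes were lower in LII (38.6% of all genes passed, 21.2% as lower), among them Gria1 with -0.47 ± 0.09 and Cacng2 with -0.46 ± 0.14. LEC LII lay below LEC LDeep without overlap at each of the 4 ages for Gria1. Of all genes 12.3% did not overlap there in P2 samples, 24.3% in P9, 35.1% in P23, and 14.1% in P45 samples. At P45 Gria1 was at 7.63, 8.03, 7.89, and 8.21 in LII against 8.23, 8.39, 8.47, and 8.89 in LDeep. Without P23 replicate 2 only 3 of the 6 passed. Within the MEC Gria2 (-0.21 ± 0.08), Gria3 (-0.72 ± 0.10), and Cnih3 (-0.41 ± 0.09) were lower in LII and Gria4 was higher (0.23 ± 0.08, adjusted p = 0.0232), so 4 passed (40.8% of genes, 19.9% as lower and 21.0% as higher). In a fit of the 32 MEC samples alone only Gria3 and Cnih3 passed, and Gria2 (adjusted p = 0.0768) and Gria4 (adjusted p = 0.0533) did not. Gria2 did not pass either without any 1 of 8 replicate numbers, or Gria4 without any of 4. With the number as a block Gria1 (-0.24) and Cnih2 (-0.18) passed too, as lower. Without the 5 libraries that stand apart 7 passed there, now also Gria1 (-0.33), Cacng8 (-0.36), and Cacng3 (0.22, higher in LII). The layer difference itself was not shown to depend on region or age. For region 0 of 9 passed with edgeR, with DESeq2, and with limma (1.25% of all genes passed with edgeR), and 2, Cacng2 (0.43) and Gria4 (0.35), had an unadjusted p below 0.05. With the replicate block Gria4 passed (0.36, adjusted p = 0.0395). For age 0 of 9 passed with all 3 tools, 0 at an unadjusted p below 0.05 (8.80% of genes).

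**Figure D3:**
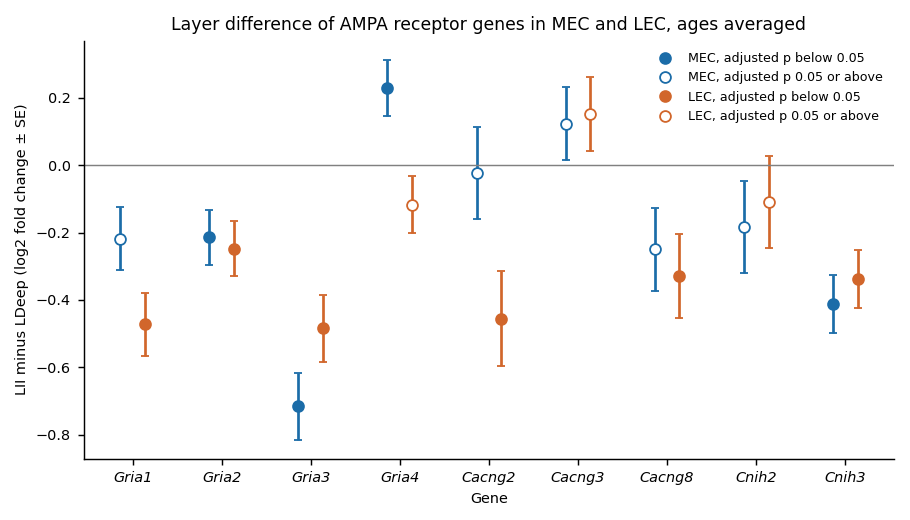
Layer difference (LII minus LDeep, LFC with SE as bars, ages weighted equally, vertical axis) of the 9 genes (horizontal axis) in MEC (blue) and LEC (orange). Filled points passed the edgeR test and open points did not; Gria3 is lowest in the MEC (-0.72) and Gria4 in the MEC the only filled point above 0 (0.23).

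The shares moved with layer for Gria3, which made up 13.4 ± 3.12% of the subunits in LII and 16.1 ± 2.77% in LDeep, and for Gria4, with 13.1 ± 1.94% and 10.2 ± 1.53% (n = 16 replicate numbers, exact permutation test on pairs, adjusted p = 0.000651 each). LII was lower in 15 of 16 numbers for Gria3 and higher in 15 of 16 for Gria4. With the numbers taken as pairs 7 of the 8 shares passed, all but that of Cacng2, and with samples unpaired only these 2 did.

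Between the regions 1 of the 9 members passed. With layers and ages weighted equally, Gria4 was higher in the MEC (LFC 0.20 ± 0.06, edgeR, adjusted p = 0.0138) and the other 8 did not pass, where 15.4% of all genes did, 8.87% as higher. With the replicate number as a block, Cnih2 (-0.26, adjusted p = 0.00015) and Cnih3 (-0.16, adjusted p = 0.00969) passed too, both lower in the MEC, Cnih2 in 13 of 16 numbers and Cnih3 in 12. Markers of other cells also moved with region. In the MEC 1 of 7 interneuron markers was higher (Slc32a1, 0.34) and 2 were lower (Sst, -0.38, and Vip, -0.41). Their summed level was 218 to 1363 CPM in the MEC (median 634) and 262 to 836 CPM in the LEC (median 618), and no marker of this list was at 0 in all samples. By layer the regions went opposite ways. The median was 642.7 CPM in MEC LII and 481.5 in LEC LII, and 626.9 in MEC LDeep and 742.9 in LEC LDeep. The 1363 CPM came from MEC LII at P2, and MEC LDeep reached 797 CPM. That group holds the library labelled MEC LII P2 replicate 1, whose interneuron marker Gad1 was at 676 CPM, against 75.5 to 316 in the other 63 samples. Of 5 markers each, 2 of oligodendrocytes were higher (median LFC 0.65), 1 of excitatory neurons was higher, and 1 of all neurons was higher and 1 lower, and of 6 astrocyte markers 0 passed. Their part in the region differences was not tested. In LII alone 12.6% of genes passed, and in LDeep 5.78%. For Gria4 the region difference was 0.37 ± 0.08 in LII (adjusted p = 0.00117) and 0.03 ± 0.08 in LDeep (not past the threshold), and the test of the difference between layers did not pass (0.35 ± 0.12, adjusted p = 0.143), but did with the replicate block, as given above. At P9 Gria4 was at 7.83, 8.06, 7.55, and 7.71 log2 CPM in MEC LII and 7.23, 7.30, 7.34, and 7.30 in LEC LII, without overlap (9.12% of genes). At P45 it was at 7.93, 7.93, 7.80, and 7.99 in MEC LII and 7.02, 7.91, 7.61, and 7.79 in LEC LII, where 1 LEC sample lay above the lowest of the MEC. Over the replicate numbers MEC LII was higher in 15 of 16. Without P23 replicate 2 (0.17) or P9 replicate 2 (0.17) Gria4 did not pass over both layers (adjusted p = 0.0832 and 0.0701). Without the library labelled MEC LII P2 replicate 1, Gria1 (-0.15, adjusted p = 0.0126) and Gria2 (-0.13, adjusted p = 0.0197) also passed, as lower in the MEC. Without all 5 libraries 5 members passed, with Gria1 (-0.14), Gria2 (-0.14), Cacng8 (-0.15), and Cnih3 (-0.15) lower in the MEC beside the higher Gria4 (0.20).

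For Gria1 and Gria3 the region difference changed with age (region by age, older minus younger, 4.38% of all genes passed, 2.30% as lower). For Gria1 the mean log2 CPM of MEC minus LEC over layers was 0.42 ± 0.36 (SD) at P2, with MEC higher in 5 of 5 replicate numbers. It was -0.12 ± 0.18 at P9 (higher in 1 of 4), -0.33 ± 0.19 at P23 (0 of 3), and -0.44 ± 0.20 at P45 (0 of 4). The change had an LFC of -0.58 ± 0.13 (edgeR, adjusted p = 0.00445). It was -0.47 without the library labelled MEC LII P2 replicate 1 (adjusted p = 0.00056) and -0.41 without all 5 (adjusted p = 0.00133). At P45 Gria1 was at 7.91, 8.02, 8.07, and 8.02 in MEC LDeep and 8.23, 8.39, 8.47, and 8.89 in LEC LDeep. All 4 LEC samples were thus above all 4 of the MEC, as were 3 above 3 at P23 (7.32% and 15.8% of genes do not overlap). At P2 in LII the LFC between regions was 0.71 (adjusted p = 0.00477, 5.85% of genes passed), and 0.295 without the library labelled MEC LII P2 replicate 1, which did not pass (adjusted p = 0.243), with MEC LII at 9.59, 8.05, 8.33, 8.07, and 8.30 and LEC LII at 7.64, 8.05, 7.86, 7.80, and 8.05. The highest of these is the library labelled MEC LII P2 replicate 1, and the other 4 MEC values overlap those of the LEC only at 8.05.

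Gria3 gave MEC minus LEC differences of 0.19 ± 0.35 for P2 and 0.07 ± 0.29 for P9, then -0.20 ± 0.19 for P23 and -0.42 ± 0.25 for P45, and all 7 replicate numbers at P23 and P45 were lower in the MEC. Its change was -0.48 ± 0.14 (edgeR, adjusted p = 0.0339), and -0.40 without the 5 libraries (adjusted p = 0.0132). It did not pass when any of 9 replicate numbers or the library LEC LDeep P45 replicate 4 was left out, nor with limma. Gria2 (-0.22 ± 0.11), Gria4 (-0.04 ± 0.12), and the auxiliary genes did not pass.

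**Figure D4:**
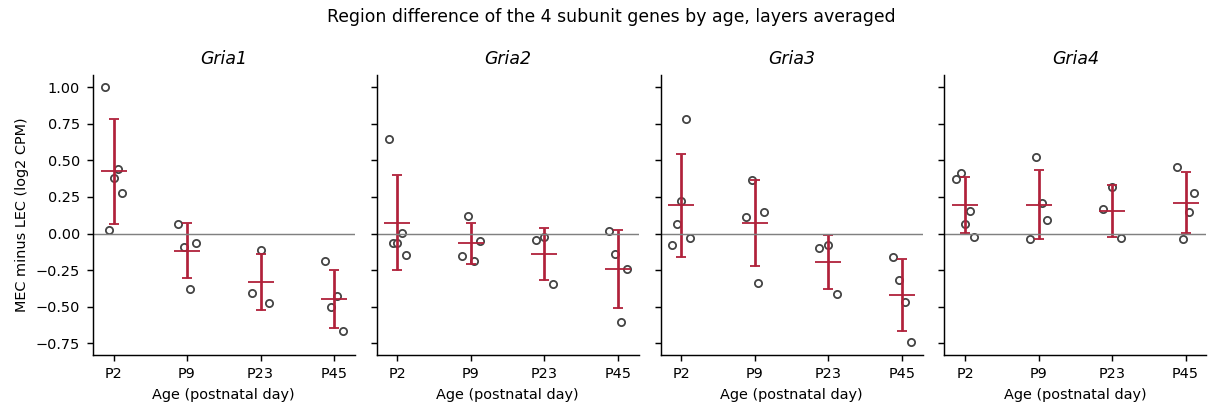
Difference of MEC minus LEC in log2 CPM, averaged over layers (vertical axis), for the 4 subunit genes at P2, P9, P23, and P45 (horizontal axis). Open points are replicate numbers, red bars their mean and SD; for Gria1 all 5 points at P2 lie above 0 and all 7 at P23 and P45 below.

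Other genes of the AMPA receptor pathway, from lists chosen by function, moved with age in both directions. Of 9 other auxiliary genes tested, 5 rose and 2 fell (median LFC 0.43), where 41.0% of all genes rose and 40.6% fell. Cacng4 (TARP gamma-4), known from immature brain and glia, fell by 1.30 ± 0.12 on the log2 scale and Shisa6 by 1.03 ± 0.22, while Shisa8 (1.34 ± 0.21) and Syndig1 (1.13 ± 0.09), a regulator of excitatory synapse development, rose (edgeR, adjusted p from 1.59e-17 to 3.95e-05). All 5 genes of assembly and export rose (median LFC 0.63, against 0.01 over all genes), led by Abhd6 (0.99), Abhd12 (0.82), and Cpt1c (0.63), a receptor partner in the endoplasmic reticulum.

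Of the 8 trafficking and anchoring partners 5 rose and 3 fell. Arc, the immediate early gene whose protein drives receptor endocytosis, rose 11.2-fold, Dlg1 (SAP97) 4.13-fold, and Nsf, the ATPase that binds GRIA2, 3.59-fold. The PDZ proteins that bind the GRIA2 tail went down, Grip2 by 1.32 ± 0.10 and Grip1 by 1.25 ± 0.04, and Pick1 by 0.54 ± 0.04. All 3 pentraxins, which cluster receptors from outside the cell, rose: Nptx1 (2.69 ± 0.14), Nptx2 (1.26 ± 0.07), and Nptxr (0.71 ± 0.08). Of the 3 editing enzymes Adarb1 (ADAR2, which edits the pore site of Gria2) rose by 0.98 ± 0.04 and Adar by 0.38 ± 0.04, and Adarb2, which is not known to edit, fell by 1.02 ± 0.09. Editing itself was not measured in these counts.

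**Figure D5:**
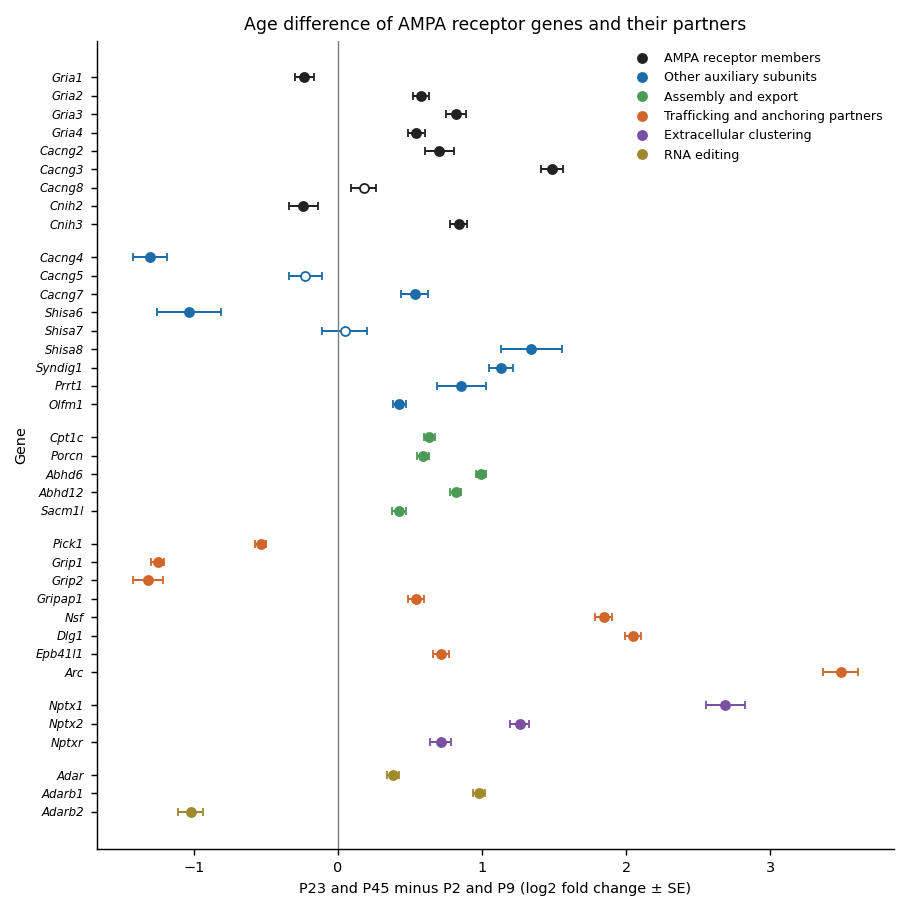
Age difference (P23/P45 minus P2/P9, LFC with SE as bars, horizontal axis) of the 9 members and 28 partner genes (vertical axis), coloured by list. Filled points passed the edgeR test and open points did not; Arc lies farthest right (3.49) and Grip2 farthest left (-1.32).

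Partners also differed by layer, where 54.0% of all genes passed. Of the 9 auxiliary genes Syndig1 was higher (0.20) and Olfm1 lower (-0.22) in LII. Lower were also 3 of 5 assembly genes (Cpt1c -0.21, Abhd12 -0.17, Porcn -0.11) and 5 of 8 trafficking partners, led by Grip2 (-0.47), Grip1 (-0.46), and Epb41l1 (-0.25). Nptx1 showed the largest layer difference of the pathway at -1.51 ± 0.14 (edgeR, adjusted p = 5.37e-14), and Nptx2 was lower by 0.36 (LFC -0.36). Of the editing genes Adarb2 (0.38) and Adarb1 (0.12) were higher and Adar lower (-0.24). Between regions, where 15.4% of all genes passed, 7 of the 28 partners did. Shisa8 was 3.47-fold higher in the MEC (LFC 1.80 ± 0.21, adjusted p = 2.93e-09), and Cacng5 was lower (-0.31, adjusted p = 0.0499). Nptxr (-0.61 ± 0.08) and Nptx2 (-0.26) were lower in the MEC, and Adarb1 (0.20), Dlg1 (0.19), and Cpt1c (0.11) higher.

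Across the 64 samples the genes most like each member were found by Pearson's r of log2 CPM. The r is given as a description, since age, tissue, and library depth vary across these samples and are common to all genes. Cacng3 followed Snph, which encodes a protein that docks axonal mitochondria (r = 0.97), St8sia5 (0.96), and Cnksr2 (0.96). Gria3 followed Gas7 (0.93), Nptx1 (0.89), and Sh3gl2 (0.89), and Cnih3 the potassium channel Kcnc2 (0.90), Hpcal4 (0.89), and Svop (0.89). Gria2 followed Mir2985 (0.95), Dpp10 (0.93), and Nalcn (0.91). Mir2985 lies within counted bases of Gria2 on the same strand, as Mir935 (0.74) does for Cacng8, and pairs that overlapped several genes were counted for each, so their reads are shared. Cacng8 was otherwise nearest to Pitpnm1 (0.77) and Dlg3 (0.75). Gria4 was nearest to the calcium channel subunit gene Cacnb4 (0.84), Crlf3 (0.84), and Hspa4l (0.84), Gria1 to Pcdh17 (0.86), Clip1 (0.82), and Ehbp1 (0.80), and Cacng2 to Atp2b3 (0.87) and Esrrg (0.86). Cnih2 had no close neighbour, the nearest being Rpn1 (0.64), Map1lc3a (0.63), and Wsb2 (0.63). Among the members themselves Gria3 and Cnih3 were most alike (0.85), and Gria1 and Cacng3 least (-0.49).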

How the data were processed

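Ribosome-depleted total RNA was sequenced by the authors on an Illumina HiSeq (TruSeq Stranded, Ribo-Zero Gold). Per the labels' processing notes, reads were demultiplexed with bcl2fastq 1.8.4, trimmed with Trimmomatic 0.33, mapped to rn6 with STAR 2.4.0, and assigned with featureCounts of Subread 1.4.6-p1. The deposited files hold raw counts of read pairs per RefSeq gene (exons, strand-specific), without normalization, 3894334 to 11439143 per sample. The authors' counting counts a pair that overlaps several genes for each, and near-identical copies can share reads.

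Groups were taken from the sample labels. With R 4.3.3 and edgeR 4.0.16, genes were filtered by expression and scaled by TMM, and 1 mean for each of 16 groups was fitted over 64 samples with the quasi-likelihood test, without a block. P-values were adjusted over all 12521 genes (BH). The SE is the LFC divided by the square root of F. Log2 CPM used a prior count of 2. Alternatives used DESeq2 1.42.0 and limma 3.58.1. Shares were compared by exact permutation over replicate numbers. The scripts were tested on simulated data.

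All 9 members are named. Partner genes with an absolute LFC of at least 1, or otherwise the 3 largest past the threshold, were named, and other partners by layer, region, or age were added after their values were seen. Members and lists were chosen with earlier results of these data known. Gsg1l, Shisa9, and Frrs1l were not analysed here, nor were the sequences of Gria1, Gria2, and Gria3. Leaving out the libraries that stand apart was chosen after seeing the data.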

Additional observations from a re-analysis of the deposited data

Results flagged for a closer look

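In groups of 4 or 5 samples, 11 of 108 values of members and groups held a sample far from the others by Dixon's test, where chance gives about 1 in 20 (5.4). The library labelled MEC LII P2 replicate 1 accounted for 4 of these. It was at 9.59 log2 CPM for Gria1 (other samples 8.05 to 8.33), 10.16 for Gria2 (8.89 to 8.99), 2.82 for Cacng3 (4.05 to 4.39), and 6.16 for Cacng8 (4.50 to 4.72). LEC LDeep P45 replicate 4 was high for Cacng3 at 6.60 (5.77 to 5.84) and for Cacng8 at 6.54 (5.28 to 5.47), and its Wfs1 and Reln, markers of layer II, were at 579 and 715 CPM. MEC LDeep P2 replicate 4 was high for Gria3 at 8.56 (7.34 to 7.53). These 3 libraries are among the 5 that stand apart over all genes.

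The other 4 came from samples that do not stand apart. Gria1 in LEC LII P9 replicate 4 was at 8.13 (7.78 to 7.84), and Gria2 in MEC LDeep P45 replicate 2 at 10.14 (9.89 to 9.92). Cacng8 was low in LEC LII P2 replicate 1 at 4.33 (4.90 to 5.00) and in LEC LII P45 replicate 3 at 5.18 (5.53 to 5.60).

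The age change differed between MEC and LEC for Gria1 (LFC of the difference -0.58) and Gria3 (-0.48), by the edgeR test of the interaction.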

How the results depend on the processing

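No normalization moved the median LFC of all genes by over 0.1 in any comparison (largest shift 0.052), and only Gria1 with age changed direction while called, to 0.0477 in the fit of the LEC samples alone. Of the members' values over all comparisons 635 kept direction and side of the threshold under other settings, 13 came to pass, and 17 no longer did.

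Members passing within the MEC by layer were 2 in a fit of the MEC samples alone and 7 without the 5 libraries, against 4. For region they were 3 with the replicate block, 3 with limma and quantile normalization, 2 with DESeq2, and 5 without the 5 libraries, against 1. With the replicate block 1 passed for layer by region, Gria4 (0.36, adjusted p = 0.0395), against 0. For region by age 1 passed with limma, against 2. Of the shares by layer 2 passed in the MEC samples alone and 2 without the replicate block, against 7, and of those by region 2 without the 5 libraries, against 1.

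Leaving out single replicate numbers or libraries gave 0 to 4 members for region, 1 to 2 for region by age, 3 to 6 for layer in the LEC (3 without P23 replicate 2), 0 to 3 shares by region, 7 to 9 members with age, and 5 to 7 by layer (7 without the library labelled MEC LII P2 replicate 1). Calls lost in some of these were those of Gria2 (8 numbers) and Gria4 (4) by layer in the MEC, Cacng8 (7), Gria2 (2), and Cacng2 (1) by layer in the LEC, Cnih3 from P2 to P9 (4), and Cnih2 (4) and Gria4 (P23 replicate 2, 0.21) from P9 to P23. Gria2 from P9 to P23 did not pass with limma and quantile normalization (adjusted p = 0.0848), and on summed counts neither did Cnih3 from P2 to P9 (0.102) nor Cnih2 from P9 to P23 (0.114).

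Replicate numbers were not taken as pairs in the main edgeR test, and the labels do not say what a number stands for. Of 96 same-numbered pairs of samples 55 deviated together with an r over 0.1, against 59 of 300 differently numbered pairs. These counts cannot settle whether a number is 1 animal. If it is, the age p-values of the main test may be too small. As a random block in limma, the number left 7 members passing with age, older against younger, against 8. The mean r was 0.134 for the same number, 0.114 to 0.173 in the 6 pairs of tissues, against -0.04 for different numbers. Values were centred on their group mean, so the means for same and different numbers are not independent. Of 64 samples 42 correlated best with their own number, which is a hint from the data and not from the design. The share to be met by chance was not computed. With the number as a block Cnih2 passed by layer (-0.15, adjusted p = 0.0107) and Cnih2 and Cnih3 by region (-0.26 and -0.16), and within the MEC Gria1 and Cnih2 by layer (-0.24 and -0.18).

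Counts of all genes passing moved by over 1.5 times in some settings. From P23 to P45 they were 482, against 60 on summed counts, 248 with a random block, and 866 without the 5 libraries. A filter of 10 counts in every sample, which tests fewer genes, gave 4353 by layer (against 6767), 3312 in the MEC (5112), and 2892 in the LEC (4835). Layer by region gave 156, against 286 with the block and 342 without the 5 libraries, and layer by age 1102 against 1887. Of calls for layer by region 75.6% were higher, and 65.2% with DESeq2. The causes were not tested. Depth limits Cacng2 most, at 35 counts in 1 sample, and 3 replicates at P23 limit the steps to and from it.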

Other observations

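At P2 the 5 replicate numbers of Cnih2 fell apart in all 4 tissues, with numbers 1 and 2 at 6.54 to 7.27 log2 CPM and numbers 3, 4, and 5 at 7.57 to 8.27, which gave it the widest SD of the members at this age (0.52 over replicate numbers, against 0.06 for Cacng8). What the numbers share was not tested.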
